A study of Danio rerio with 12 samples.

Results

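The nuclear-encoded genes of the mitochondrial respiratory chain were examined in whole zebrafish larvae lacking elmo1. Members were all Ensembl genes whose symbol names a subunit, or a closely named protein, of complexes I to V (symbols starting with nduf plus a, b, c, s or v and a number, sdh plus a, b, c or d, uqcr, cyc1, cox plus 4 to 8, or atp5), with at least 10 counts in 6 or more of the 12 samples. Of 32520 genes in the files, 99 carried such a symbol and 98 met the count minimum: 35 of complex I, 9 of complex II, 9 of complex III, 25 of complex IV and 20 of complex V. The one left out was ndufa9b (ENSDARG00000094312), which did not exceed 5.22 counts in any sample. The 98 members include proteins that are not subunits, namely the SDHAF assembly factors of complex II, COX7A2L, the NDUFA4L2 genes and the ATP5IF1 inhibitors, and they are described as such.

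The samples were 6 pools of elmo1+/+ larvae and 6 pools of elmo1-/- larvae, each of 30 larvae at 120 hours post fertilisation (hpf). The elmo1-/- larvae came from a single line, made with CRISPR/Cas9 in the Tg(fli1:EGFP) background, whose EGFP marks endothelial cells and which both genotypes carry. In the files, names of the elmo1-/- pools carry the unexplained ending hz, and nothing states whether the pools of a genotype came from separate clutches, so that p-values measure the spread between these samples only. In whole larvae, fewer cells of a type and less RNA per cell cannot be told apart.

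The respiratory chain passes electrons from NADH (complex I) and succinate (complex II) through ubiquinone, complex III, cytochrome c and complex IV to oxygen, and complexes I, III and IV pump protons across the inner mitochondrial membrane. Complex V, the ATP synthase, lets these protons flow back and makes ATP. Most subunits are encoded in the nucleus and imported, whereas a few core subunits of complexes I, III, IV and V are encoded by mitochondrial DNA, so that both genomes supply these complexes. Muscle, heart and photoreceptors are known for a high content of these complexes.

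The samples held 20784515 to 21808513 counts in total. The targeted gene elmo1, which codes for an adaptor of the Rac activator Dock, was measured at 121.7, 128 and 143 counts per 1000000 (CPM; lowest, median and highest of 6 samples) in elmo1+/+ and at 97.1, 107 and 120 CPM in elmo1-/-. The genotypes did not overlap, but the log2 fold change of -0.26 ± 0.059 (standard error, SE) had an adjusted p of 0.137 in edgeR's quasi-likelihood test and of 0.00817 in DESeq2. Transcripts of the marker lists for fast muscle, heart, photoreceptors, liver and erythrocytes, tissues of a larva, were found in every sample.

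To investigate whether transcripts of the respiratory chain differed in elmo1-/- compared to elmo1+/+ larvae, all 21830 genes with sufficient counts were tested together, and all 98 members were among them. No member was called higher or lower: 0 of 98 had an adjusted p under 0.05 (edgeR, Benjamini-Hochberg over all tested genes), where 0.234% of all tested genes did, and the lowest adjusted p of a member was 0.669. At an unadjusted p under 0.05, 2 of 98 members (2.04%) passed, against 6.16% of all genes, and DESeq2 and limma-voom each gave 3 members at that level and 0 after adjustment. The genotypes overlapped in CPM for every member, while 0.518% of all tested genes showed no overlap. The 95% interval of the log2 fold change lay within 0.25 of 0 for 77 members (78.6%) and for 39.3% of all genes, and the median SE of a member was 0.070, against 0.10 over all genes.

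The members lay slightly above 0 as a list when counts were compared. Of 98 members, 73 (74.5%) had a log2 fold change above 0, beside 51.7% of all tested genes. The median was 0.029, beside 0.0043 over all genes, and single members ranged from -0.085 to 0.61. On log2(TPM + 1) values, where TPM is transcripts per 1000000, corrected for transcript length, 35 members lay above 0 and the median was -0.016, but all genes were shifted on that scale to a median of -0.039, relative to which the members' median was 0.023. In counts, the median depended on single samples. Without the first elmo1+/+ sample, 43 members lay above 0 with a median of -0.0092, and without the sixth elmo1-/- sample it was 51 members with a median of 0.00012, whereas leaving out the sixth elmo1+/+ sample gave 88 members and a median of 0.053.

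**Figure D1:**
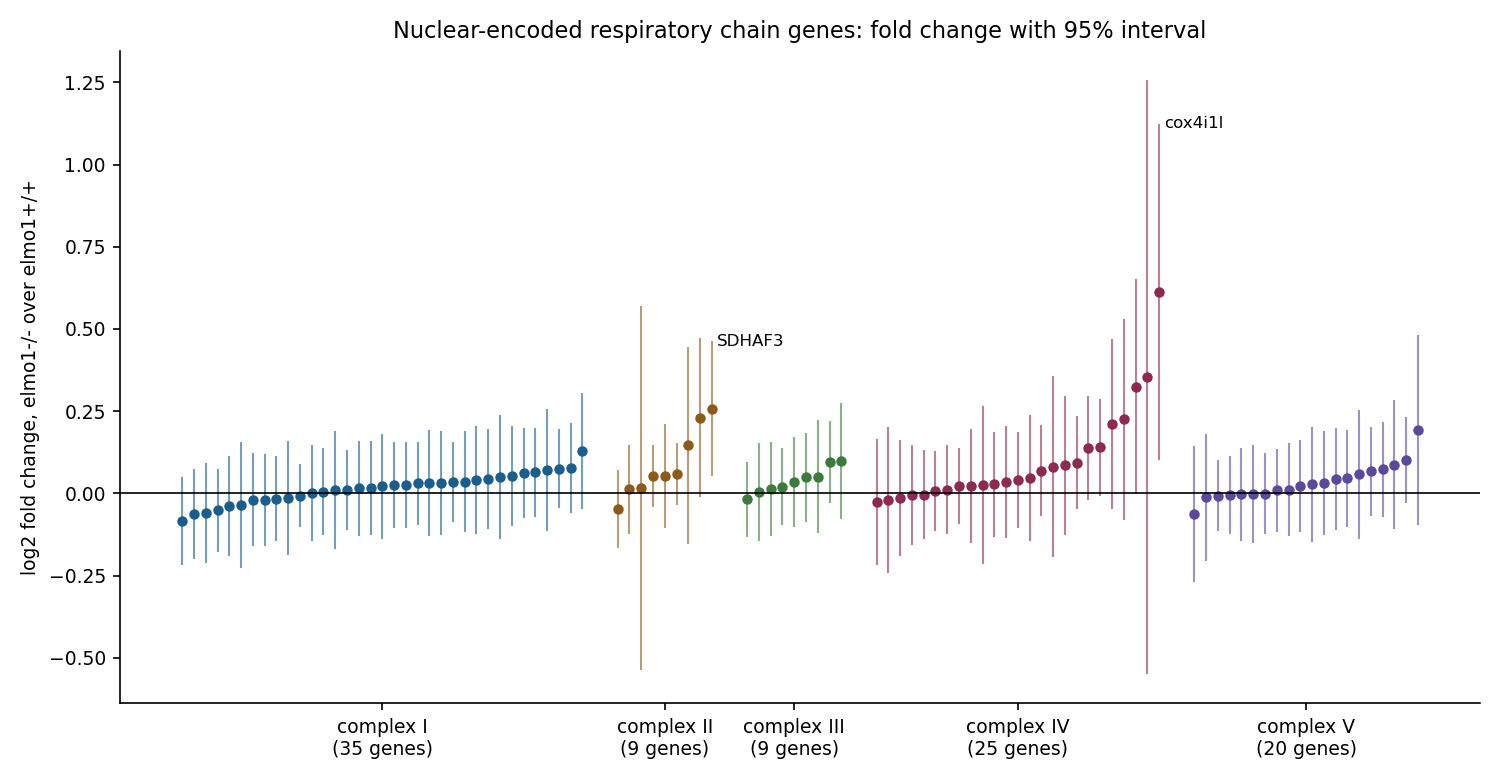
Log2 fold change of each of the 98 genes (points, elmo1-/- over elmo1+/+, edgeR) with its 95% interval (lines), sorted within complexes I to V. Values range from -0.085 to 0.61, most intervals cross 0, and only those of SDHAF3 and cox4i1l lie above it.

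Complex I oxidises NADH and has the most subunits. Of its 35 members, 24 (68.6%) lay above 0, and the median was 0.022. The 95% interval lay within 0.25 of 0 for 33 of them (94.3%), beside 39.3% of all tested genes. This held for fewer members of the other complexes, with 5 of 9 in complex II and 8 of 9 in complex III. It was 15 of 25 in complex IV and 16 of 20 in complex V. The 7 core subunits, among which are those that carry the flavin and the iron-sulfur clusters, had a median of 0.034. The 28 accessory subunits, which stabilise the complex, had a median of 0.013. The highest value belonged to NDUFS8, an iron-sulfur subunit next to the site of ubiquinone reduction. It was measured at 152.4, 172 and 219 CPM in elmo1+/+ and 160, 200 and 205 CPM in elmo1-/- (lowest, median and highest), which gave a log2 fold change of 0.13 ± 0.083 (adjusted p = 0.928). The ranges overlapped because the fifth elmo1-/- sample, at 159.5 CPM, lay among the elmo1+/+ samples and the fifth elmo1+/+ sample was the highest of all 12. NDUFS1, the large iron-sulfur subunit of the NADH-oxidising module, followed with 0.077 ± 0.064.

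At the other end of complex I were ndufb3 and NDUFS3. The membrane-arm accessory gene ndufb3 was measured at 47.5, 52.2 and 61.2 CPM in elmo1+/+ and 44.3, 50.5 and 52.5 CPM in elmo1-/- (log2 fold change -0.085 ± 0.063, adjusted p = 0.951). On log2(TPM + 1) ndufb3 was at -0.22 (limma, unadjusted p = 0.042, adjusted p = 0.786). Its assigned length differed between the genotypes by 0.087 on the log2 scale. For NDUFS3, a core subunit of the peripheral arm, the corresponding values were 51.7, 62.9 and 65.3 CPM and 55.2, 56.9 and 67.3 CPM. For NDUFS3, 5 of 6 elmo1-/- samples lay between 55.2 and 58.4 CPM and below 5 of the 6 elmo1+/+ samples, but the first elmo1+/+ sample was the lowest and the sixth elmo1-/- sample the highest of all 12, and the log2 fold change was -0.062 ± 0.064. By length-corrected level, NDUFB1 and NDUFB8, both accessory subunits of the membrane arm, were the most abundant of complex I with a mean of 893.5 and 392.5 TPM over the 12 samples. The TPM of NDUFB1 rests on a mean of only 28.7 CPM and the shortest assigned length of all 98 members, and is less certain for that reason.

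Complex II, succinate dehydrogenase, is the only complex of the chain with no subunit encoded by mitochondrial DNA. Its 4 subunit types were represented by 5 genes, all with log2 fold changes between 0.012 and 0.059. SDHA, the flavoprotein that oxidises succinate, was measured at 157, 164 and 177 CPM in elmo1+/+ and 167, 174 and 182 CPM in elmo1-/- (0.059 ± 0.045). The ranges of SDHA overlapped between 167 and 177 CPM. SDHC, a membrane anchor, was close to equal with medians of 46.6 and 46.7 CPM. These were also the members of complex II with the highest levels, at a mean of 87.2 TPM for SDHA and 96.2 TPM for SDHC.

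The larger values of complex II belonged to assembly factors, which are not part of the mature complex and were present at a mean of 7.83 to 11.1 TPM. SDHAF3, which in yeast and flies helps to mature the iron-sulfur subunit, was measured at 4.81, 5.18 and 5.82 CPM in elmo1+/+ and 5.26, 6.53 and 7.29 CPM in elmo1-/-. In 4 of 6 elmo1-/- samples SDHAF3 lay above all elmo1+/+ samples, and the first and second elmo1-/- samples lay among them. Its log2 fold change of 0.26 ± 0.096 had a 95% interval of 0.053 to 0.46, an unadjusted p of 0.0172 and an adjusted p of 0.669 in edgeR. For sdhaf1, which acts on the same subunit in human cells, the log2 fold change was 0.23 ± 0.11 in counts but -0.047 in log2(TPM + 1). The mean length assigned to sdhaf1 differed between the genotypes by 0.25 on the log2 scale. That length was unstable from sample to sample, with an SD of 0.38 over the 12 samples. SDHAF4 was at 0.15 ± 0.14, and SDHAF2, required to attach the flavin to SDHA, was at -0.047 ± 0.056.

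Complex III, the cytochrome bc1 complex, had 8 of 9 members above 0 and a median of 0.035. Its nuclear-encoded redox subunits, cytochrome c1 (CYC1) and the Rieske iron-sulfur protein (UQCRFS1), had log2 fold changes of 0.021 ± 0.055 and 0.013 ± 0.067. UQCRB, a small subunit near the ubiquinone-binding site, had the highest value with 51.7, 60.0 and 69.8 CPM in elmo1+/+ and 55.6, 64.7 and 71.6 CPM in elmo1-/- (0.099 ± 0.083, adjusted p = 0.959). The ranges of UQCRB overlapped over most of their width. The core protein UQCRC2 is present as a pair of genes, of which uqcrc2a was at 0.095 ± 0.058 and UQCRC2 had the lowest value of the complex with -0.018 ± 0.054. UQCRQ, the most abundant member with a mean of 574 TPM, was at 0.0047 ± 0.070, and UQCRH, the hinge protein that helps cytochrome c1 to meet cytochrome c, had a mean of 250.5 TPM and was at 0.049 ± 0.064.

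Complex IV, cytochrome c oxidase, had 20 of 25 members above 0 and a median of 0.040, and the widest spread of fold changes. The highest value was that of cox4i1l (ENSDARG00000012388), one of 3 genes for subunit 4, the largest nuclear-encoded subunit. It was measured at 2.81, 3.31 and 6.28 CPM in elmo1+/+ and 3.67, 5.57 and 9.07 CPM in elmo1-/-. In 3 elmo1-/- samples cox4i1l lay above all elmo1+/+ samples and in the other 3 it lay within their range. The log2 fold change was 0.61 ± 0.24, with a 95% interval of 0.10 to 1.12, an unadjusted p of 0.0221 and an adjusted p of 0.714, and it ranged from 0.45 to 0.81 when single samples were left out. This gene contributed a mean of 1.66% of the summed TPM of subunit 4 genes, so the dominant COX4I1 (log2 fold change 0.0075 ± 0.057) set the level of the subunit's transcripts.

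Further values above 0.1 in complex IV, named after they were seen, belonged to minor copies, to proteins outside the core and to the major subunit 7a gene. COX6A1 (ENSDARG00000054588), the minor of the subunit 6a genes, was measured at 9.87, 13.4 and 15.2 CPM in elmo1+/+ and 11.4, 16.1 and 24.4 CPM in elmo1-/- (0.32 ± 0.15, adjusted p = 0.814) and was highest in the second elmo1-/- sample. A minor COX5B copy (ENSDARG00000068738) was at 0.23 ± 0.14. The major subunit 7a gene, COX7A2 (ENSDARG00000053217), was measured at 67.2, 80.6 and 89.7 CPM and at 80.4, 86.3 and 96.8 CPM (0.14 ± 0.069, adjusted p = 0.839). COX7A2L, known in mice for joining complexes III and IV in supercomplexes, was at 0.14 ± 0.074. The NDUFA4L2 genes, relatives of the NDUFA4 subunit that are known in mammals for induction by low oxygen, were weakly expressed. NDUFA4L2 was at 0.21 ± 0.12, and ndufa4l2b had the second highest value of the complex on a mean of 0.578 CPM (0.35 ± 0.42). The lowest values were those of COX5A (-0.026 ± 0.090) and of COX5B (ENSDARG00000113254; -0.020 ± 0.10).

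The abundant subunits of complex IV showed small differences. With cox6c, the member with the highest mean level of all 98, TPM was 922, 1173 and 1235 in elmo1+/+ and 1030, 1104 and 1160 in elmo1-/-, and its log2 fold change in counts was -0.0045 ± 0.071. The elmo1-/- samples of cox6c lay inside the range of the elmo1+/+ samples. The second in complex IV was cox6a1 with a mean of 956 TPM and -0.014 ± 0.083. By level, cox6c was followed over all complexes by atp5mc3b, whose range of 1028 to 1237 TPM lay over that of cox6c, so these neighbours did not differ beyond their spread.

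**Figure D2:**
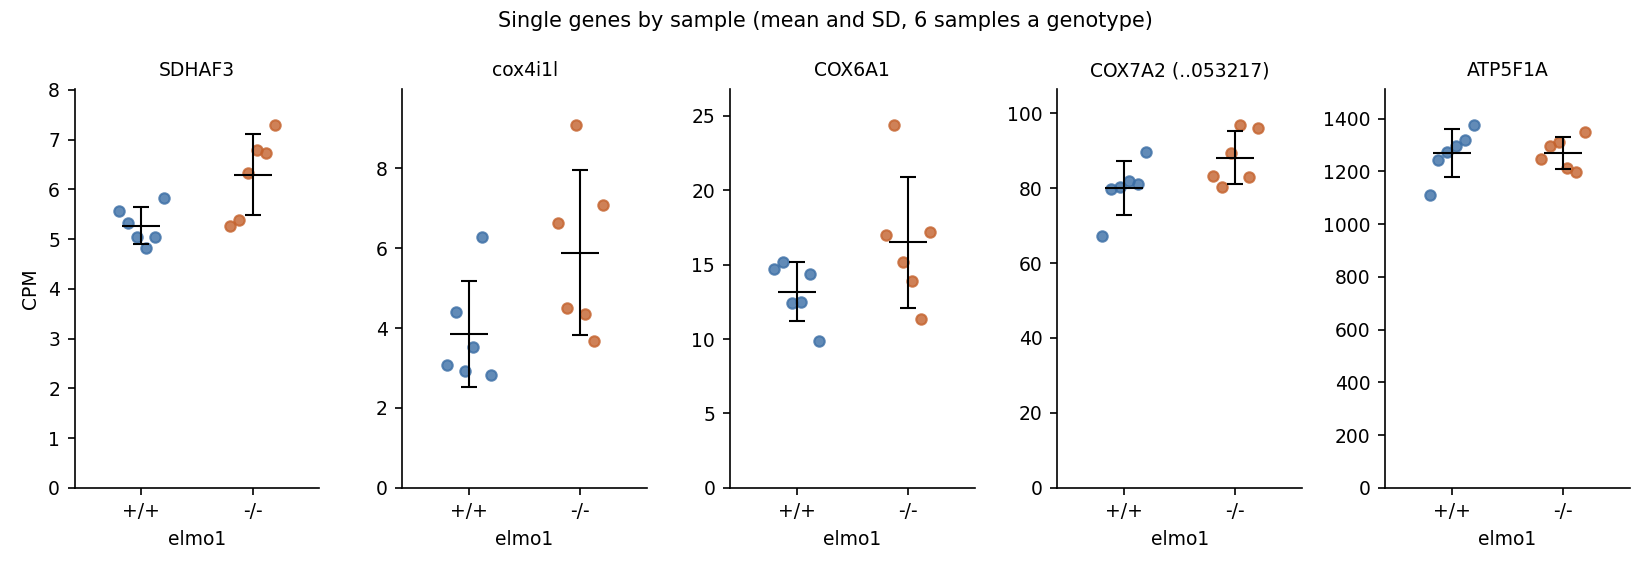
CPM in each sample (points, side by side in the order of the replicate numbers) with mean and SD of 6 samples per genotype; both genotypes carry points in a shared range in each panel. The panels show SDHAF3 and cox4i1l, which had an unadjusted p under 0.05, COX6A1 and COX7A2 (ENSDARG00000053217) of complex IV, and ATP5F1A, whose log2 fold change was -0.000535.

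Within complex V, the F1 part had the median closest to 0. The 5 genes of the F1 part, which binds nucleotides and makes ATP, had log2 fold changes between -0.0067 and 0.031. ATP5F1A, the alpha subunit, was measured at 1110, 1286 and 1375 CPM in elmo1+/+ and 1197, 1271 and 1350 CPM in elmo1-/-, with a log2 fold change of -0.000535 ± 0.058 and a 95% interval of -0.12 to 0.12. All 6 elmo1-/- samples of ATP5F1A lay within the range of the elmo1+/+ samples. The 4 genes of the peripheral stalk, which holds the F1 part in place, had a median of 0.0097. The 3 genes of the proton-carrying c ring had a median of 0.0093, among them atp5mc3b with a mean of 1116 TPM (0.027 ± 0.082) and atp5mc1 (-0.012 ± 0.091).

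The remaining members of complex V, 6 genes of the membrane part and 2 inhibitor genes, had medians of 0.070 and 0.073. In the membrane part, atp5mea and atp5meb, copies of the gene for subunit e, which in yeast and mammals holds ATP synthase dimers together, had the highest values. The minor copy atp5mea was measured at 11.5, 14.1 and 16.7 CPM in elmo1+/+ and 12.8, 14.8 and 23.3 CPM in elmo1-/- (0.19 ± 0.14, adjusted p = 0.938), and fell to 0.054 without the fifth elmo1-/- sample, the single high one. The major copy atp5meb was measured at 105, 121 and 130 CPM and at 113, 128 and 139 CPM (0.10 ± 0.061). The lowest value was that of atp5md, a small subunit also known as DAPIT in mammals, with -0.063 ± 0.096. The inhibitors atp5if1a and atp5if1b, which block ATP hydrolysis when the proton gradient fails, were at 0.088 ± 0.092 and 0.058 ± 0.092.

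Summed together, the members made up 2.38% to 2.69% of all transcripts by TPM. These sums, and those of each complex, leave out the subunits encoded by mitochondrial DNA. The sum was 25580 ± 1285 TPM in elmo1+/+ and 25160 ± 607 TPM in elmo1-/- (mean ± SD, n = 6 each). Complexes V and IV contributed the most, with 8897 ± 411 and 8123 ± 438 TPM in elmo1+/+ and 8772 ± 216 and 8003 ± 176 TPM in elmo1-/-. Complex I followed with 6506 ± 341 and 6354 ± 236 TPM, complex III with 1726 ± 115 and 1707 ± 55.5 TPM, and complex II with 325 ± 12.9 and 327 ± 8.16 TPM. For each complex and for their sum, the difference between the means was smaller than the SD within elmo1+/+, and the ranges overlapped. The direction depended on the scale. In CPM, the sum over all members was 12740 ± 911 in elmo1+/+ and 12960 ± 633 in elmo1-/-, and all genes had a median of -0.039 on log2(TPM + 1).

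**Figure D3:**
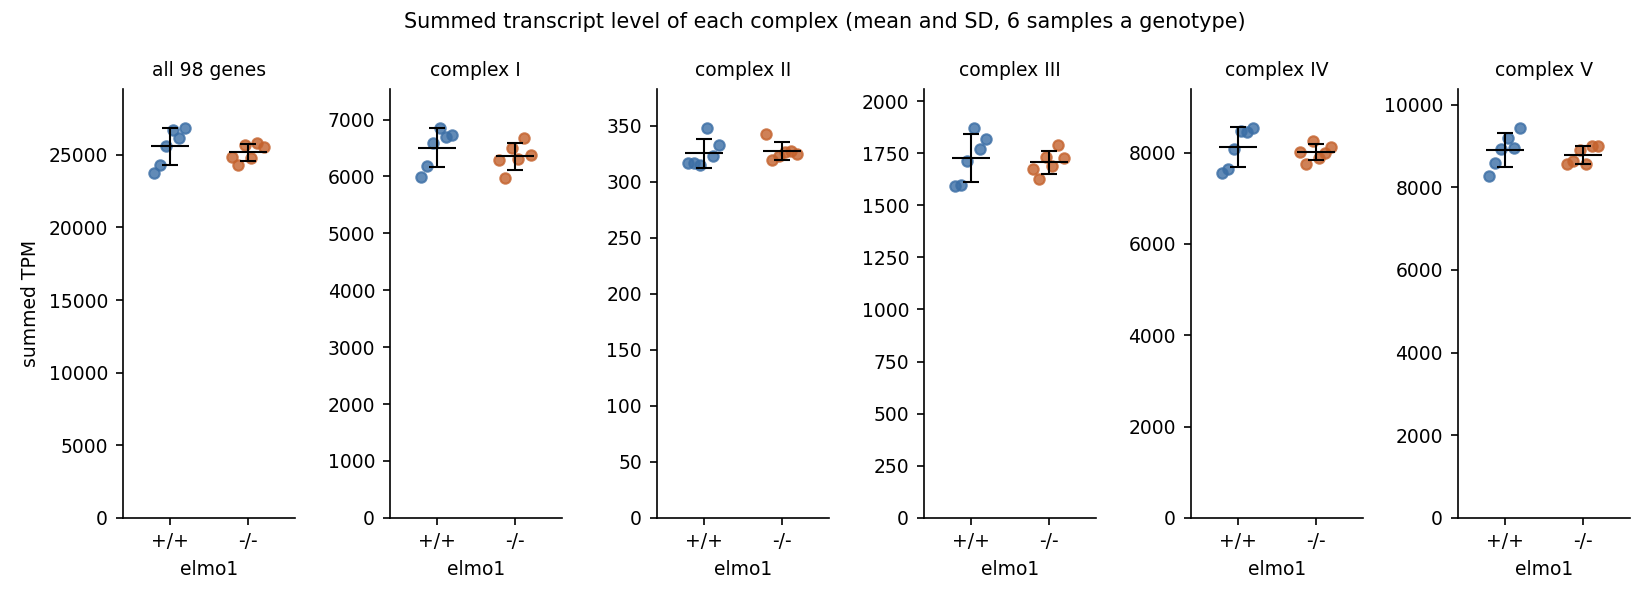
Summed TPM of all 98 nuclear-encoded genes and of those of each complex in the 12 samples (points, in the order of the replicate numbers), with mean and SD per genotype (n = 6); all axes start at 0. Complex II, at 315 to 348 TPM, lies far below complexes IV and V, and the genotypes overlap in every panel.

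The members varied together from sample to sample within both genotypes. For each sample, the deviation of each member from its mean over the 12 samples was taken on the log2 CPM scale. In the first elmo1+/+ sample the median deviation was -0.20 and only 4 of 98 members lay above their mean, including 0 of 35 in complex I and 0 of 20 in complex V. In the sixth elmo1+/+ sample the median was 0.12 with 84 members above, and in the sixth elmo1-/- sample it was 0.13 with 92 members above. The other elmo1+/+ samples had medians of -0.051 to 0.028, and the other elmo1-/- samples had medians of -0.050 to 0.062. The genotypes thus overlapped, and a high sample was found in each. In both genotypes the first sample was the lowest, with -0.050 in elmo1-/-, and the sixth was the highest. What the shared replicate numbers mark is not stated. Among all tested genes, 49.7% to 51.8% lay above their mean in each sample. The scaling of the samples largely holds that share in place, so it does not show how far other sets of genes moved. When the median of the members was subtracted from each sample, the median SD of a member within a genotype went from 0.13 to 0.081 on the log2 scale, and it became smaller for 86 of 98 members. On log2(TPM + 1), the median deviations in the first elmo1+/+, sixth elmo1+/+ and sixth elmo1-/- samples were -0.088, 0.072 and 0.022. Relative to the median of all genes in each sample, they were -0.18, 0.11 and 0.12.

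**Figure D4:**
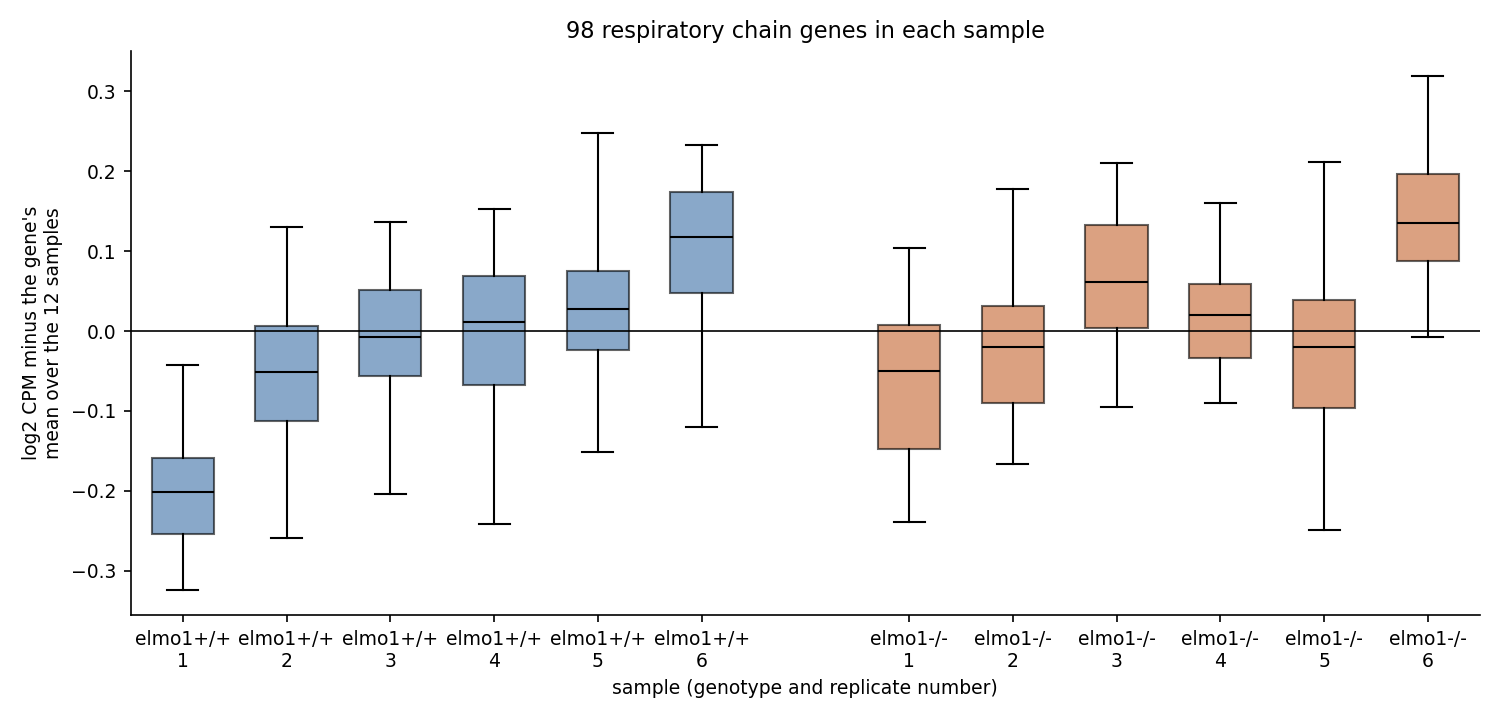
Deviation of the 98 genes from their mean over the 12 samples (log2 CPM) in each sample; boxes show quartiles and median, whiskers the 5th and 95th percentiles. The first elmo1+/+ sample is low (median -0.20), and the sixth samples of both genotypes are high (0.12 and 0.13).

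Other transcripts moved in part with these samples. The 8 photoreceptor markers had median deviations of -0.19 in the first elmo1+/+ sample, 0.15 in the sixth elmo1+/+ sample and 0.15 in the sixth elmo1-/- sample, and over all samples their summed level ranged from 6228 to 8710 CPM in elmo1+/+ and from 6935 to 8569 CPM in elmo1-/-. The 3 erythrocyte markers were at -0.62, 0.18 and 0.49 in these samples and summed to 329.5 to 600.1 CPM in elmo1+/+ and 395 to 733 CPM in elmo1-/-. The 14 fast muscle markers were at -0.098, -0.043 and 0.20 and summed to 53770 to 63640 CPM and 51680 to 67780 CPM. The 8 heart markers were at -0.043, -0.17 and 0.11 and summed to 110 to 155 CPM and 100.1 to 137 CPM. The 4 tested intestine markers were at -0.22, 0.18 and 0.34. All 5 matched intestine markers together summed to 884 to 1260 CPM and 864 to 1393 CPM. Photoreceptor, erythrocyte and intestine markers thus lay low in the first and high in both sixth samples, as the members did. The other tissue lists did not in all of these samples. All of these markers departed from the members elsewhere. Photoreceptor markers were at -0.15 in the fifth elmo1+/+ and 0.16 in the fourth elmo1-/- sample, where the members were at 0.028 and 0.020. Erythrocyte markers were at -0.65 in the second elmo1+/+ and 0.47 in the fifth elmo1-/- sample, where the members were at -0.051 and -0.020. Intestine markers were at 0.42 in the second elmo1-/- sample, where the members were at -0.020. Liver markers were at 0.19, -0.17 and 0.12 (2749 to 4726 and 2492 to 5717 CPM), exocrine pancreas markers at 0.28, -0.49 and -0.33 (240 to 913 and 224 to 621 CPM), slow muscle markers at 0.10, -0.051 and 0.095 (775 to 942 and 746 to 863 CPM) and ionocyte markers at 0.11, -0.14 and -0.024 (513 to 634 and 580.2 to 621 CPM). No marker of these lists was at 0 in all samples, and the part of these tissues in the shared variation was not tested. Log2 fold changes above 0, beside 51.7% of all tested genes, were found for 12 of 14 fast muscle (median 0.089), 3 of 3 erythrocyte (0.26) and 5 of 5 liver markers (0.15). They were found for 4 of 4 intestine (0.095), 6 of 8 photoreceptor (0.063), 4 of 5 ionocyte (0.033) and 3 of 8 heart markers (-0.032). None was found among 5 slow muscle (-0.083) and 3 exocrine pancreas markers (-0.26). In the fast muscle list, 1 of 14 genes was called, where 0.234% of all tested genes were. It was a TNNI2 copy (ENSDARG00000013752) that made up a very small part of the summed level of the list. This copy was higher in elmo1-/-, with 3.26, 3.54 and 3.99 CPM in elmo1+/+ and 4.68, 5.63 and 7.62 CPM in elmo1-/- (log2 fold change 0.70, adjusted p = 0.0284 in edgeR).

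Several subunits were encoded by more than one expressed gene, and the larvae used most of these copies unequally. Shares of summed TPM over the copies are given as the mean of 12 samples, as a description, since kallisto divides reads shared by close copies by estimation. For subunit 4, COX4I1 held 90.6%, COX4I2, known in mammals as an isoform of lung and low oxygen, 7.72% and cox4i1l 1.66%. For subunit 6a, cox6a1 held 94.9% and COX6A1 (ENSDARG00000054588) 5.11%. For subunit 8, cox8a held 91.7% and cox8b, whose namesake is a heart and muscle isoform in many mammals, 8.29%. For subunit 6b, cox6b2, named after an isoform that mammals confine to testis, held 83.1% and cox6b1 16.9%. For subunit 5b, COX5B ENSDARG00000015978 held 85.3%, ENSDARG00000113254 9.08% and ENSDARG00000068738 5.62%.

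In the other sets, the mean share of the largest copy ranged from 53.4% for uqcrc2a to 96.7% for an SDHD gene. For subunit 7a, the COX7A2 genes ENSDARG00000053217 and ENSDARG00000110700 held 58.7% and 29.7%, and cox7a1, named after the heart and muscle isoform of mammals, 11.7%. The share of ENSDARG00000110700 rests on a mean of only 12.2 CPM and a short assigned length, and is less certain for that reason. In CPM this gene lay below cox7a1, which had a mean of 16.7 CPM. For subunit 5a, cox5aa held 66.6% and COX5A 33.5%. NDUFA4 held 85.0% beside 13.5% for ndufa4b, with 1.01% for NDUFA4L2 and 0.415% for ndufa4l2b. In complex V, the c ring, whose genes in mammals code for the same mature protein, was supplied by atp5mc3b with 66.7%, atp5mc1 with 21.9% and ATP5MC3 with 11.5%. The inhibitor was supplied by atp5if1a with 71.5% and atp5if1b with 28.5%, and subunit e, a set added after its values were seen, by atp5meb with 87.4% and atp5mea with 12.6%. In complex III, uqcrc2a held 53.4% and UQCRC2 46.6%, and in complex II, SDHD ENSDARG00000030139 held 96.7% and ENSDARG00000055712 3.29%.

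The shares were close in both genotypes. That of uqcrc2a was 52.4% ± 2.05 in elmo1+/+ and 54.4% ± 1.08 in elmo1-/- (SD, n = 6 each), that of COX7A2 ENSDARG00000053217 was 57.6% ± 1.67 and 59.7% ± 1.64, and that of cox4i1l was 1.36% ± 0.429 and 1.97% ± 0.657. Their ranges overlapped in each case, with 49.3% to 55.1% against 52.7% to 56.1% for uqcrc2a, 55.1% to 59.7% against 57.5% to 62.3% for COX7A2 and 0.927% to 2.12% against 1.24% to 2.96% for cox4i1l. In every set, the copy with the largest mean share was the same in both genotypes.

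**Figure D5:**
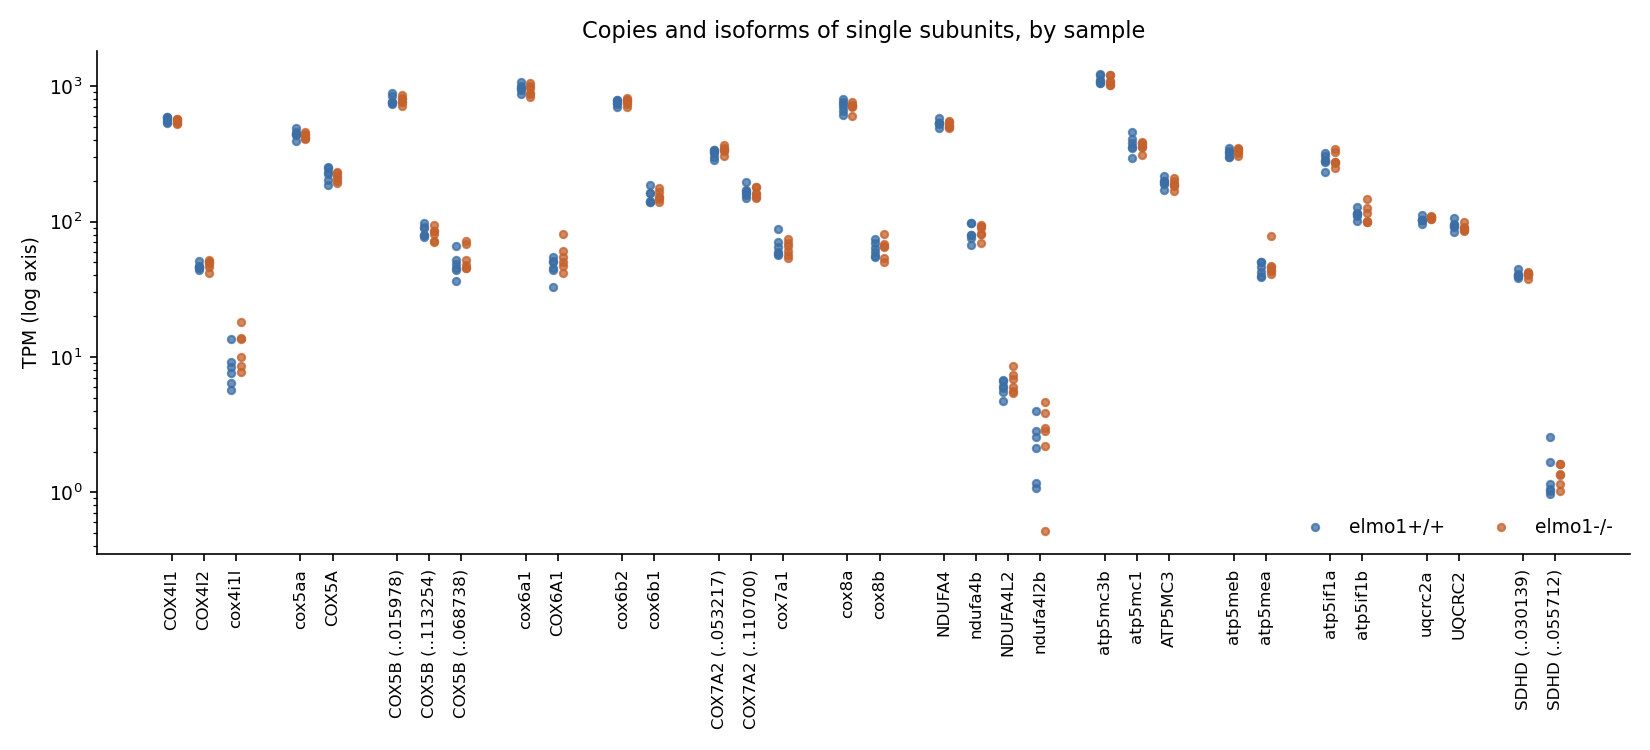
TPM of each copy or isoform in the 12 samples, grouped by subunit, on a log axis (elmo1+/+ left and elmo1-/- right of each tick; digits in brackets are the end of the Ensembl identifier). Some copies lie far apart, such as COX4I1 (mean 558 TPM) and cox4i1l (mean 10.21 TPM), whereas uqcrc2a and UQCRC2 overlap.

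The 13 subunits encoded by mitochondrial DNA were compared with the nuclear-encoded members, since complexes I, III, IV and V are built from both. All 13 had a log2 fold change above 0, between 0.024 and 0.13 with a median of 0.090, and 10 of 13 on log2(TPM + 1). In edgeR, DESeq2 and limma-voom alike, 0 of 13 were called and 0 had an unadjusted p under 0.05. In CPM, which is not corrected for length, the highest was MT-CO1, the catalytic subunit of complex IV. It was measured at 16540, 17560 and 18260 CPM in elmo1+/+ and 15920, 19150 and 21980 CPM in elmo1-/-. By length-corrected level the highest was mt-atp8, with a mean of 29980 TPM against 15740 TPM for MT-CO1. The range of MT-CO1 in elmo1-/- enclosed that in elmo1+/+. By TPM, these 13 genes made up 11.3% to 13.7% of all transcripts, several times the share of the 98 nuclear-encoded members. Like the 98 members, these 13 genes lay low in the first elmo1+/+ sample, with a median deviation of -0.072 and 3 of 13 above their mean. In the sixth elmo1+/+ and sixth elmo1-/- samples they lay high, at 0.097 and 0.17, with 13 of 13 above in each. They did not vary in parallel with the members in every sample. In the third elmo1+/+ sample 0 of 13 lay above their mean, whereas 45 of 98 nuclear-encoded members did. In the fourth elmo1-/- sample it was 13 of 13 and 61 of 98.

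Lists of genes that act around the chain had medians near 0 as well, and 0 of these genes were called in edgeR, DESeq2 or limma-voom. Single log2 fold changes ranged from -0.45, in an assembly factor, to 0.19, in a regulator of mitochondrial biogenesis. Of 46 assembly factors of complexes I, III, IV and V, 20 lay above 0 with a median of -0.022, and 1 had an unadjusted p under 0.05 in edgeR (0 in DESeq2 and limma-voom). Of 20 tested genes for ubiquinone synthesis, cytochrome c and electron transfer flavoprotein, 11 lay above 0 with a median of 0.014 and 0 passed that level with any of the 3 tools. Of 19 genes of the tricarboxylic acid cycle and pyruvate dehydrogenase, 13 lay above 0 with a median of 0.024, with 0 at that level in edgeR and DESeq2 and 1 in limma-voom. Of 21 regulators of mitochondrial biogenesis, 9 lay above 0 with a median of -0.016, and 3 (14.3%, beside 6.16% of all tested genes) passed it with each tool. In edgeR these were NRF1, which was higher in elmo1-/-, and a PPARD copy (ENSDARG00000044525) and GABPB1, which were lower, all named after their values were seen. NRF1 was measured at 28.8, 30.5 and 30.6 CPM in elmo1+/+ and 31.1, 33.5 and 35.6 CPM in elmo1-/-, with a log2 fold change of 0.14 ± 0.047 and an adjusted p of 0.541. The genotypes did not overlap for NRF1 in CPM, which held for 1 of the 21 genes beside 0.518% of all tested genes, but they overlapped in TPM (11.9 to 14.1 and 13.6 to 14.7). The log2 fold changes of PPARD and GABPB1 were -0.42 ± 0.14 and -0.18 ± 0.073. On log2(TPM + 1), relative to the median of all genes, the medians of these lists were, in the same order, -0.020, 0.0074, 0.0083 and -0.015. In log2 CPM, assembly factors had median deviations of -0.059, 0.082 and 0.066 in the first elmo1+/+, sixth elmo1+/+ and sixth elmo1-/- samples. The corresponding values were -0.051, 0.041 and 0.031 for ubiquinone and cytochrome c, and -0.077, 0.040 and 0.078 for the tricarboxylic acid cycle. In these samples, these lists lay low and high as the members did, whereas the regulators did not (0.0087, 0.031 and -0.015). Elsewhere these lists did not match the members in every sample. Ubiquinone and cytochrome c genes were at -0.063 in the third elmo1-/- sample, where the members were at 0.062. In that sample assembly factors were at -0.011 and tricarboxylic acid cycle genes at -0.00052. Tricarboxylic acid cycle genes lay on the same side as the members but lower in the fifth elmo1-/- sample, at -0.075 against -0.020. Assembly factors lay on the same side of 0 as the members in most samples. They were lowest in the second elmo1+/+ sample, at -0.089, where the members were also low, at -0.051.

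Genes on the chromosome of elmo1 can carry linked sequence differences between the genotypes. Of 79 members with a position in the GRCz12tu annotation, 7 were on that chromosome, namely NDUFS5, NDUFS6, NDUFV1, SDHAF3, SDHA, UQCRB and atp5if1a. Their log2 fold changes ranged from -0.061 to 0.26 with a median of 0.059, and 0 were called. SDHAF3, with one of the lowest p-values among the members, is one of these 7, and the part of linkage in its value was not tested.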

How the data were processed

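RNA of 12 pools of 30 whole larvae was sequenced on a BGISEQ-500. The submitters' processing notes name Trim Galore (0.6.4), kallisto (0.4.6) and GRCz11, and the methods of the study point to another publication for the RNA sequencing and name no test for it. The authors deposited expected counts and TPM values for 32520 genes. The deposited expected counts (38.0% to 39.6% of values not whole) were rounded to whole numbers. The TPM values, which the authors corrected for length and depth, sum to 1000000 per sample and were used for levels and shares.

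Symbols were found for 29201 genes (89.8%). Upper-case symbols are orthologue names, which several copies can share. Tissue markers with no symbol of their own were matched to the orthologue name without its copy suffix, a rule chosen after the symbols were seen. Members and lists were chosen with earlier results of these data known. Members were named by complex: the 2 with the highest mean TPM, the 2 highest and the 2 lowest log2 fold changes, those called or not overlapping between genotypes, and sets of gene copies by their TPM.

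Genotypes were compared with edgeR 4.0.16 (R 4.3.3): filterByExpr (21830 genes kept), TMM factors, quasi-likelihood test with genotype as the only term, Benjamini-Hochberg adjustment over all tested genes and a threshold of 0.05. The procedure was checked on simulated counts. CPM used TMM-scaled library sizes, and log2 CPM a prior count of 2. Alternatives were other normalization factors and filters, DESeq2 1.42.0, limma 3.58.1 (voom, and log2(TPM + 1) and log2(TPM + 0.1) for genes with a mean of at least 1 TPM), the replicate number as a block, and leaving out each sample. No sequence is shown. Gene positions were taken by symbol from GRCz12tu only to name the chromosome of elmo1.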

Additional observations from a re-analysis of the deposited data

Results flagged for a closer look

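In 10 groups of 6 samples, a single sample stood apart from the other 5 by Dixon's test, where chance gives about 1 in 20 groups, or 6.1 among those examined. In complex I, NDUFB8 was at 131.8 CPM in the first elmo1+/+ sample (157 to 171 in the other 5), NDUFS3 was at 51.65 CPM in the same sample (60.5 to 65.3) and at 67.3 CPM in the sixth elmo1-/- sample (55.2 to 58.4), and NDUFS8 was at 159.5 CPM in the fifth elmo1-/- sample (192 to 205). In complex II, the weakly expressed SDHD copy ENSDARG00000055712 was at 1.605 CPM in the fifth elmo1+/+ sample (0.617 to 0.966), and the summed level of the complex was 342.7 TPM in the first elmo1-/- sample (319 to 327). In complex IV, COX5B ENSDARG00000068738 was at 18.8 CPM in the fifth elmo1+/+ sample (10.9 to 13.8), cox5aa was at 117.3 CPM in the first elmo1+/+ sample (136 to 146), and cox6b1 was at 72.9 CPM in the sixth elmo1-/- sample (55.0 to 61.6). In complex V, atp5mea was at 23.32 CPM in the fifth elmo1-/- sample (12.8 to 16.3). The low values of NDUFB8, NDUFS3 and cox5aa all fell in the first elmo1+/+ sample, in which 94 of 98 members lay below their mean.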

How the results depend on the processing

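No member was called under any of the 22 fits, and the lowest adjusted p of a member was 0.344, without the fifth elmo1-/- sample. Over all tested genes, edgeR called 51, DESeq2 97 (44 higher and 53 lower), log2(TPM + 1) 33 and log2(TPM + 0.1) 33 (12 higher and 21 lower for each), and leaving out single samples gave 34 to 67. Members at an unadjusted p under 0.05 numbered 4 on log2(TPM + 1) and 4 on log2(TPM + 0.1), and 0 to 6 when single samples were left out (0 without the sixth elmo1-/- sample, 6 without the fifth). On log2(TPM + 1) the 4 were SDHAF3 (0.18) and the complex I genes NDUFB2 (-0.17), ndufb3 (-0.22) and NDUFA9 (-0.13). In counts these complex I genes were at -0.019, -0.085 and -0.016. Their assigned lengths were longer in elmo1-/- by 0.10, 0.087 and 0.066 on the log2 scale. What the shared replicate numbers mark is not stated. Deviations of same-numbered samples correlated at -0.033 to 0.30, with 4 of 6 over 0.1 and 3 of 6 best with their own number, a hint of pairing in the data that did not hold for every number. With the replicate block, 60 genes were called, 0 members were, 6 members had an unadjusted p under 0.05, and the members' median was 0.033. For elmo1, DESeq2 gave a log2 fold change of -0.26 with an adjusted p of 0.00817, and leaving out samples gave -0.29 to -0.23. Of 200 values of named members in the other fits, 194 kept their sign. The exceptions were on log2(TPM + 1) and log2(TPM + 0.1): SDHC with -0.0089 and -0.0090, UQCRQ with -0.047 and -0.047, and sdhaf1 with -0.047 and -0.052. For sdhaf1 the assigned length varied from sample to sample (SD 0.38 on the log2 scale), more than its mean differed between the genotypes (0.25). For SDHC and UQCRQ, log2(TPM + 1) itself lowered the median of all genes to -0.039. Relative to that, SDHC lay above 0 and UQCRQ slightly below. Of 240 values with a sample left out, 224 kept their sign, and those that did not belonged to COX5A (-0.088 to 0.021), COX5B ENSDARG00000113254 (-0.074 to 0.040), SDHC (-0.028 to 0.048), UQCRC2 (-0.045 to 0.0089), UQCRQ (-0.040 to 0.041) and atp5mc1 (-0.066 to 0.045). Depth limits the weakly expressed members, such as ndufa4l2b and SDHD ENSDARG00000055712, whose SE was 0.42 and 0.26, whereas the 5 F1 genes had SE values of 0.051 to 0.074.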
